A study of Mus musculus with 45 samples.

Results

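Erythroid transcripts were followed in primary cells of the developing mouse cortex by SLAM-seq, in which 4-thiouridine taken up by living cells is read as a T-to-C conversion in the sequenced RNA. The 9 genes are 3 embryonic globins (Hbb-y, Hbb-bh1 and Hba-x), 4 adult globins (Hba-a1, Hba-a2, Hbb-bs and Hbb-bt), the red cell anion exchanger Slc4a1 and the heme synthesis enzyme Alas2, out of 53491 genes in the deposited tables. They were selected on their levels at 0 h of chase at the 3 stages, because several of them fell steeply between stages, so their differences between stages are given as a description without a test. All libraries came from wild-type (WT) embryos at E11.5, E14.5 or E16.5 (strain not given in the sources used here). Each stage had 3 replicates (A, B and C), and each replicate pooled the dissected cortices of 7 embryos (E11.5) or of 2 embryos (both later stages). The dissociated cells of a pool were divided over 5 wells, grown with 100 uM 4-thiouridine for 20 h, and lysed after 0, 2, 4, 8 or 12 h of chase with 5 mM uridine, which gave 45 libraries. The letters therefore pair libraries within a stage but mark different embryos in different stages, and E14.5 and E16.5 pools hold fewer animals than those of E11.5.

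Red blood cells of the mouse embryo arise in successive waves. Primitive erythroid cells form in the yolk sac, enter the circulation as nucleated cells and mainly make embryonic globins, and definitive cells from the fetal liver follow, which mainly make adult globins. A haemoglobin molecule pairs chains of the alpha-like family with chains of the beta-like family, and each family has its own gene cluster. Slc4a1 encodes band 3, which exchanges chloride for bicarbonate in the red cell membrane, and Alas2 encodes the erythroid form of the first enzyme of heme synthesis. Cells of the cortex itself are not known as a main source of these transcripts, and the labels describe no step that removes blood.

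The 4 beta-like genes lie on the minus strand within 40.7 kb at chr7:103812524-103853216 (GRCm38), in the order Hbb-bt, Hbb-bs, Hbb-bh1 and Hbb-y by coordinate. The 3 alpha-like genes lie on the plus strand within 20.9 kb at chr11:32276400-32297298, in the order Hba-x, Hba-a1 and Hba-a2. Slc4a1 lies at chr11:102348824-102366203 on the minus strand and Alas2 at chrX:150547375-150570638 on the plus strand. All 9 are annotated as protein-coding, and values were summed over their exons. Alas2 overlaps Apex2 and Mir3620 on the opposite strand, and the library kit keeps strand per the labels. Of all 50-base stretches in the exons of Hba-a1, 72.3% also occur in Hba-a2, and 89.3% of those in Hba-a2 occur in Hba-a1. For Hbb-bs and Hbb-bt the shares are 53.2% and 58.3%, each with the other gene. How reads that fit both copies were assigned is not given in the sources used here, so the split between these copies is uncertain. Summed levels of the adult globins, and shares that set them against embryonic globins, may depend on it as well, which was not tested. None of the 50-base stretches of Hbb-y, Hbb-bh1, Hba-x, Slc4a1 or Alas2 occurs in another gene.

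Stretches upstream of 3 globins are shown, those of Hbb-y and Hbb-bs because their levels stood in opposite order at the first and last stage, and that of Hba-a2 because its level rose over the chase at E16.5. The sequences are those of RefSeq on GRCm38.p6, written 5′ to 3′ on the strand of the gene. They end at or just before the start that RefSeq gives, and bases in an exon of the gene by GENCODE M21 were left out, since the starts of the 2 annotations differ. Capitals mark the motifs CACCC and CCAAT (searched on both strands), a TATA box (TATAAA or TATAAG or CATAAA on the strand of the gene) and a GATA motif (AGATAA or AGATAG or TGATAA or TGATAG on both strands). Hbb-y is shown at chr7:103853217-103853337 (121 bases), Hbb-bs at chr7:103827929-103828011 (83 bases) and Hba-a2 at chr11:32296362-32296488 (127 bases).
Hbb-y: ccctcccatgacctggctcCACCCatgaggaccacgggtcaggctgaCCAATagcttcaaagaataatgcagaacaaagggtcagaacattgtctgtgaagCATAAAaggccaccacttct
Hbb-bs: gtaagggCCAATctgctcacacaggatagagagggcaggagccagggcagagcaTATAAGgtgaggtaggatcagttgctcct
Hba-a2: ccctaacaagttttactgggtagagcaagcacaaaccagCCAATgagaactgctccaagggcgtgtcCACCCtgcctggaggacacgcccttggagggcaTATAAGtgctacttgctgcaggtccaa
Hbb-y and Hba-a2 hold CACCC as well as CCAAT and a TATA box in these stretches, and the shorter one of Hbb-bs holds CCAAT and a TATA box. Of the 9 genes, 7 had a promoter in the table used. The full window of each promoter ran from 250 bases before to 50 after the RefSeq start. In it a match to the TATA box was found in 7 of 7, against 17.7% of 32851 mouse promoters. Each of the 6 globins had such a match at -30 to -27 from the RefSeq start, whereas that of Alas2 lay at -207. CACCC was found in 7 of 7 against 57.5%, GATA in 6 of 7 against 29.8% and CCAAT in 5 of 7 against 37.4%. In Hbb-y the GATA motif and a second match to CATAAA share bases upstream of the printed stretch. A match is a run of letters and was not tested for binding.

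The libraries held 15.9 to 43.9 M reads (median 33.0 M) and 229 to 629 M covered T positions, and their summed conversion rate at 0 h was 1.01 to 1.44% at E11.5, 1.03 to 1.18% at E14.5 and 1.80 to 1.91% at E16.5. All libraries were labelled, so the rate at which T reads as C in unlabelled RNA is unknown here. Of 11 cortical markers, 10 were in the tables and all 10 averaged at least 1 cpm (counts of reads scaled to a library of 1e6 reads) at 0 h at every stage. Of 8 defining erythroid markers (such as Gata1 and Klf1), 7 were in the tables. Their summed level at 0 h was 12.2 to 23.0 cpm at E11.5, 0.242 to 0.467 cpm at E14.5 and 0.166 to 0.347 cpm at E16.5. Gata1, the main erythroid transcription factor, had 0 reads in all 6 later libraries at 0 h, where 3 reads would be 0.0637 to 0.114 cpm. Intervals and floors of this kind cover counting error only.

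At E11.5 these 9 transcripts together took 0.197 to 0.432% of the reads at 0 h, and Hbb-y alone made up most of them. Their summed level was 2709 ± 1091 cpm at E11.5, 126 ± 31.4 cpm at E14.5 and 139 ± 61.9 cpm at E16.5 (SD, n = 3 each). The 3 pools of E11.5 lay at 1801, 2407 and 3920 cpm, all far above the later libraries. The sum differed little between E14.5 and E16.5, where its ranges overlapped. In these bulk samples, fewer blood cells and less RNA per blood cell cannot be told apart.

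**Figure D1:**
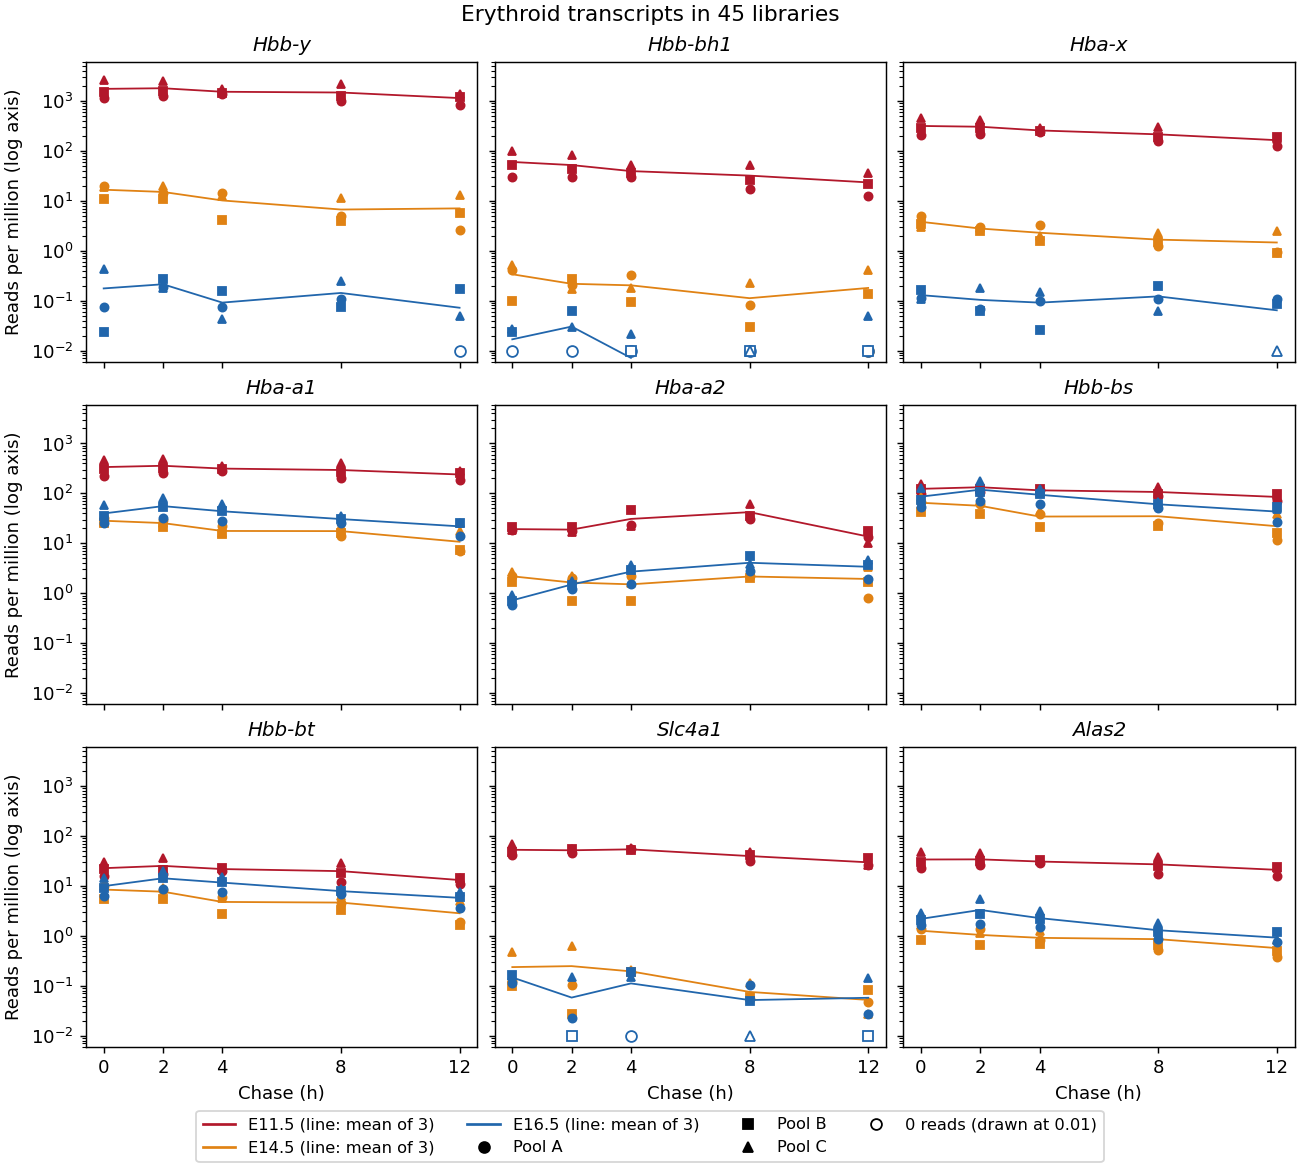
Level of the 9 erythroid transcripts in cpm (log axis) against chase time in hours, with 1 point for each of 45 libraries, colours for stages, shapes for pools and lines through the mean of 3 pools. Open points at the lower edge are libraries with 0 reads. Hbb-y and Hba-x sit in separate bands by stage, the E14.5 and E16.5 points of Hbb-bh1 and Slc4a1 overlap below those of E11.5, and Hbb-bs and Hbb-bt of the 3 stages lie close together.

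Among the embryonic globins, Hbb-y, the epsilon-type beta-like chain, stood at 1141, 1511 and 2582 cpm in pools A, B and C of E11.5 at 0 h. It stood at 20.1, 11.0 and 18.9 cpm at E14.5 and at 0.0761, 0.0237 and 0.427 cpm at E16.5. The last values rest on 2, 1 and 16 reads, and no library of one stage overlapped another stage. On the log2 scale Hbb-y at E14.5 differed from E11.5 by -6.69 ± 0.60, and at E16.5 from E14.5 by -6.39 ± 0.65 (SE).

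Hbb-bh1, a further embryonic beta-like chain, stood at 30.4, 51.6 and 97.8 cpm at E11.5 and at 0.403, 0.0989 and 0.510 cpm at E14.5. At E16.5 it had 0, 1 and 1 reads. It was the 1 gene of the 9 that did not pass the filter of more than 10 covered Ts in all 9 libraries at 0 h, so no fold was fitted for it. Hba-x, the embryonic alpha-like (zeta) chain, stood at 207, 289 and 451 cpm at E11.5, at 5.01, 3.36 and 3.01 cpm at E14.5 and at 0.114, 0.166 and 0.107 cpm at E16.5 (3, 7 and 4 reads). Its log2 differences were -6.31 ± 0.29 and -4.97 ± 0.34 (SE). All 3 embryonic globins thus stood in the same order of stages, without overlap for Hbb-y and Hba-x and with 0 or 1 read a library for Hbb-bh1 at the end.

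The adult alpha genes showed a larger first step than the adult beta genes. Hba-a1, the adult alpha chain gene with more reads assigned to it, stood at 228, 312 and 471 cpm at E11.5. It stood at 32.5, 25.6 and 27.1 cpm at E14.5 and at 25.3, 35.6 and 58.2 cpm at E16.5. Its level at E14.5 differed from E11.5 by -3.52 ± 0.31 on the log2 scale, and that at E16.5 from E14.5 by 0.51 ± 0.28 (SE), with overlapping libraries. Hba-a2, its near-identical copy, stood at 18.3, 21.2 and 18.4 cpm, then 2.23, 1.65 and 2.68 cpm, then 0.571, 0.687 and 0.908 cpm. Its log2 differences of -3.22 ± 0.18 and -1.53 ± 0.18 (SE) ran downward at both steps, without overlap.

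The adult beta chain Hbb-bs stood at 96.6, 122 and 151 cpm at E11.5, at 68.1, 42.4 and 84.6 cpm at E14.5 and at 53.6, 73.9 and 131 cpm at E16.5. Its ranges at E11.5 and E16.5 overlapped, and its log2 differences of -0.87 ± 0.30 and 0.43 ± 0.30 (SE) were the smallest of the first step and among the smaller of the second. Hbb-bt, the other adult beta chain, stood at 15.5, 21.9 and 30.5 cpm, then 10.0, 5.51 and 9.80 cpm, then 6.32, 9.22 and 14.1 cpm. Its log2 differences were -1.41 ± 0.30 and 0.35 ± 0.30 (SE), with E14.5 and E16.5 overlapping.

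Slc4a1 showed the largest first step of the 8 genes fitted, and the 2 red cell genes outside the globins differed at the second. Slc4a1 stood at 41.4, 47.3 and 70.1 cpm at E11.5, at 0.127, 0.0989 and 0.483 cpm at E14.5 and at 0.114, 0.166 and 0.160 cpm at E16.5, where 3 to 7 reads were counted. Its log2 differences were -7.80 ± 0.51 and -0.80 ± 0.50 (SE), and the later stages overlapped. Alas2 stood at 23.1, 30.6 and 47.6 cpm, then 1.36, 0.824 and 1.61 cpm, then 1.64, 2.06 and 2.86 cpm. Its log2 differences were -4.72 ± 0.33 and 0.87 ± 0.29 (SE), so that Alas2 stood lowest at E14.5 while Slc4a1 stayed low at both later stages.

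Dividing reads by exon length allowed globins to be set against each other, and the make-up of the globin pool turned over between stages. Among the globins only the adult genes share long stretches with a like copy. The part of read assignment in the shares below was not tested. Embryonic globins held 82.9% ± 1.57 of all globin reads per kb at 0 h in E11.5 cortex, 18.6% ± 1.70 in E14.5 cortex and 0.232% ± 0.0764 in E16.5 cortex (SD, n = 3 each). Among the beta-like genes the embryonic share was 93.4% ± 1.11, 21.9% ± 2.06 and 0.199% ± 0.158. Among the alpha-like genes it was 42.8% ± 1.25, 9.47% ± 1.53 and 0.309% ± 0.133. The embryonic share at E11.5 was therefore lower in the alpha-like family than in the beta-like family in each pool. The alpha-like family held 20.6% ± 0.936, 26.3% ± 5.51 and 28.6% ± 0.816 of globin reads per kb at the 3 stages, and its ranges at E14.5 and E16.5 overlapped. Hbb-y per kb stood 16.7 ± 3.50 times above Hbb-bs at E11.5, while its ratio to Hbb-bs was 0.315 ± 0.0436 at E14.5 and 0.00202 ± 0.00180 at E16.5 (SD, n = 3 each).

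**Figure D2:**
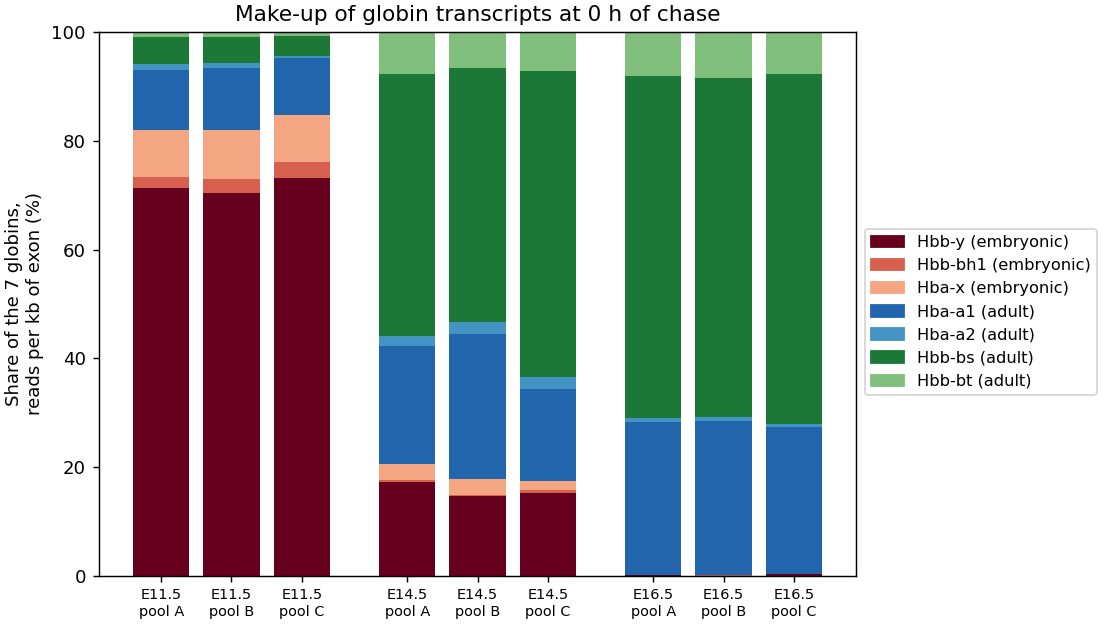
Share of each of 7 globins in the globin reads per kb of exon (%) at 0 h of chase, as 1 stacked bar for each of 9 libraries. Embryonic globins (red tones) fill 82.0 to 84.8% of each bar at E11.5, 17.4 to 20.5% at E14.5 and 0.164 to 0.315% at E16.5.

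The make-up was also compared over the chase, a contrast that did not enter the choice of genes, although its 0 h libraries did. At 12 h the embryonic share differed from 0 h by -1.22 percentage points at E11.5, where it was lower in 3 of 3 pools (two-sided exact permutation p = 0.4). It differed by 1.41 points at E14.5 (exact p = 0.8) and by -0.0212 points at E16.5 (exact p = 0.7). The smallest p that 3 against 3 libraries can give is 0.1, and the test did not use the pairing of libraries by pool. At E14.5 the difference turned to -0.0249 points without pool B and to -0.249 points without pool C, and at E16.5 to 0.0572 points without pool C. Within the alpha-like family at E11.5, the level of Hba-x per kb relative to Hba-a1 stood at 78.6, 80.1 and 82.9% at 0 h, at 65.6, 61.3 and 62.8% at 8 h and at 58.6, 63.5 and 55.6% at 12 h. The mean ran from 80.5% over 73.9, 70.8 and 63.2% to 59.2%, and the libraries of 12 h did not overlap those of 0 h. At E14.5 the same ratio was 11.45% ± 1.86 at 0 h and 11.46% ± 1.01 at 12 h (SD, n = 3).

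The level of each transcript over the chase was tested next, 12 h against 0 h within each stage, in fits across all genes. This contrast did not enter the choice of genes, but its 0 h libraries did, so the test is not independent of that choice. Nearly all erythroid transcripts stood lower at 12 h. At E11.5 the level at 12 h was below that at 0 h in 3 of 3 pools for each of the 9 genes, and the mean level left ran from 39.7% ± 2.68 for Hbb-bh1 to 74.1% ± 13.7 for Hba-a1 (SD, n = 3). The median log2 change of the 9 was -0.47, beside 0.00 for all 17904 genes tested. In the edgeR quasi-likelihood test 1 of 9 fell at a Benjamini-Hochberg adjusted p under 0.05, against 9.83% of all genes that fell, and 0 of 9 rose, against 13.2%. At an unadjusted p under 0.05, 3 of 9 were lower (Slc4a1, Hba-x and Hbb-bh1). Of all 17904 genes, 6260 had such a p in either direction.

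That 1 gene was Slc4a1, which stood at 41.4, 47.3 and 70.1 cpm at 0 h and at 26.2, 36.1 and 26.8 cpm at 12 h. It fell by 0.66 ± 0.17 on the log2 scale (SE, edgeR adjusted p = 0.0119). The call was lost without pool B (adjusted p = 0.0526) and without pool C (adjusted p = 0.0842). With the pool as a block, which compares wells of the same embryos, 7 of 9 fell, against 14.4996% of all genes. Those 7 were all except Hba-a1 (log2 change -0.25, blocked edgeR adjusted p = 0.0602) and Hba-a2 (-0.33, adjusted p = 0.182). Hbb-bh1 had the largest blocked change, by -1.13 (adjusted p = 6.8e-07), and Hbb-bs the smallest of the 7, by -0.32 (adjusted p = 0.0446).

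At E14.5 the median log2 change of the 8 genes tested was -1.33, beside 0.00 for all 17956 genes, and 4 of 8 fell, against 7.41% of all genes. No erythroid transcript rose, against 7.64%. Hba-a1 went from 32.5, 25.6 and 27.1 cpm to 7.15, 7.45 and 17.7 cpm and fell by 1.39 ± 0.28 on the log2 scale (SE, edgeR adjusted p = 0.00337). Hbb-bs went from 68.1, 42.4 and 84.6 cpm to 11.51, 16.2 and 38.5 cpm and fell by 1.55 ± 0.43 (SE, adjusted p = 0.0242). For both, all libraries of 12 h lay below those of 0 h, and pool A lost most. Hbb-bt fell by 1.65 ± 0.39 (SE, adjusted p = 0.00966) and Hba-x by 1.26 ± 0.38 (SE, adjusted p = 0.0335).

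With the pool as a block, Hbb-y (-1.31, adjusted p = 0.00814) and Alas2 (-1.22, adjusted p = 0.00668) fell too, which made 6 of 8, against 13.3% of all genes. Pool A weighed on these calls. Without it 0 of 8 passed, without pool B 1 (Hbb-bt) and without pool C 6. In pool A the 9 transcripts together kept 18.2% of their level at 0 h, against 37.7% in pool B and 54.5% in pool C. Slc4a1 rested on 27 reads at 0 h and 5 at 12 h in all 3 libraries and did not pass (-1.90 ± 0.91, adjusted p = 0.180). Hba-a2 was higher at 12 h in pools B and C and lower in pool A, with a log2 change of -0.43 ± 0.46 (SE, adjusted p = 0.593).

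At E16.5 only 5 of the 9 genes passed the filter, namely the 4 adult globins and Alas2, and their median log2 change was -0.91, beside 0.00 for all 18008 genes. Of these 5, 1 fell and 1 rose, against 12.0% and 14.2% of all genes. Alas2 went from 1.64, 2.06 and 2.86 cpm to 0.759, 1.18 and 0.823 cpm and fell by 1.28 ± 0.40 (SE, adjusted p = 0.0283), a call lost without pool B and without pool C. Hba-a1, Hbb-bs and Hbb-bt differed by -0.84, -0.97 and -0.91 on the log2 scale, with adjusted p = 0.0860, 0.0546 and 0.0546. With the pool as a block these fell as well, which made 4 of 5, against 17.3% of all genes. Without pool A 4 of 5 also passed, and without pool B or C 0 did. The levels first stood higher at 2 h, where the sum of the 9 transcripts was 130, 148 and 138% of that at 0 h in pools A, B and C.

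Hba-a2 ran the other way at E16.5. It stood at 0.571, 0.687 and 0.908 cpm at 0 h, at 1.23, 1.49 and 1.78 cpm at 2 h and at 1.51, 2.87 and 3.75 cpm at 4 h. At 8 h it stood at 2.75, 5.62 and 3.88 cpm and at 12 h at 1.90, 3.74 and 4.55 cpm, and every library from 2 h on lay above all 3 of 0 h. The values at 0 h rest on 15, 29 and 34 reads. Hba-a2 rose by 2.00 ± 0.36 on the log2 scale (SE, edgeR adjusted p = 0.000733), in 3 of 3 pools, and kept its call in each alternative run, the block (1.92, adjusted p = 9.2e-07, against 19.7% of all genes that rose) and the leaving out of each pool included.

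The share of Hba-a2 relative to Hba-a1, both per kb, ran from 2.33% ± 0.426 at 0 h over 3.54, 7.40 and 16.2% to 18.5% ± 2.39 at 12 h at E16.5 (SD, n = 3). At E14.5 it was 9.42% ± 2.30 at 0 h and 21.5% ± 7.07 at 12 h, and at E11.5 it was 7.60% ± 2.58 at 0 h, 17.5% ± 1.11 at 8 h and 7.18% ± 2.37 at 12 h. The ratio of Hbb-bt to Hbb-bs, the other pair of like copies, averaged between 12.8 and 20.7% at all stages and times. In a fit over the 30 libraries of E11.5 and E16.5 the chase change of Hba-a2 was larger at E16.5 by 2.26 ± 0.45 on the log2 scale (SE, edgeR adjusted p = 0.00138). Against E14.5 the difference was 2.41 ± 0.63 (SE, adjusted p = 0.0607). These fits compare only 12 h with 0 h and were added after the data had been seen. At E11.5 the level of Hba-a2 stood at 30.9, 35.4 and 60.2 cpm at 8 h, above all 3 libraries of 0 h. At 12 h it stood at 13.3, 17.6 and 10.1 cpm. No other erythroid transcript tested passed in the fits. Of all genes, 11.6% (E16.5 against E11.5), 0.990% (E16.5 against E14.5) and 3.99% (E14.5 against E11.5) passed in either direction. The fit of E14.5 against E11.5 held 8 of the 9 transcripts. Both comparisons with E16.5 held 5, without Hbb-y, Hbb-bh1, Hba-x and Slc4a1.

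**Figure D3:**
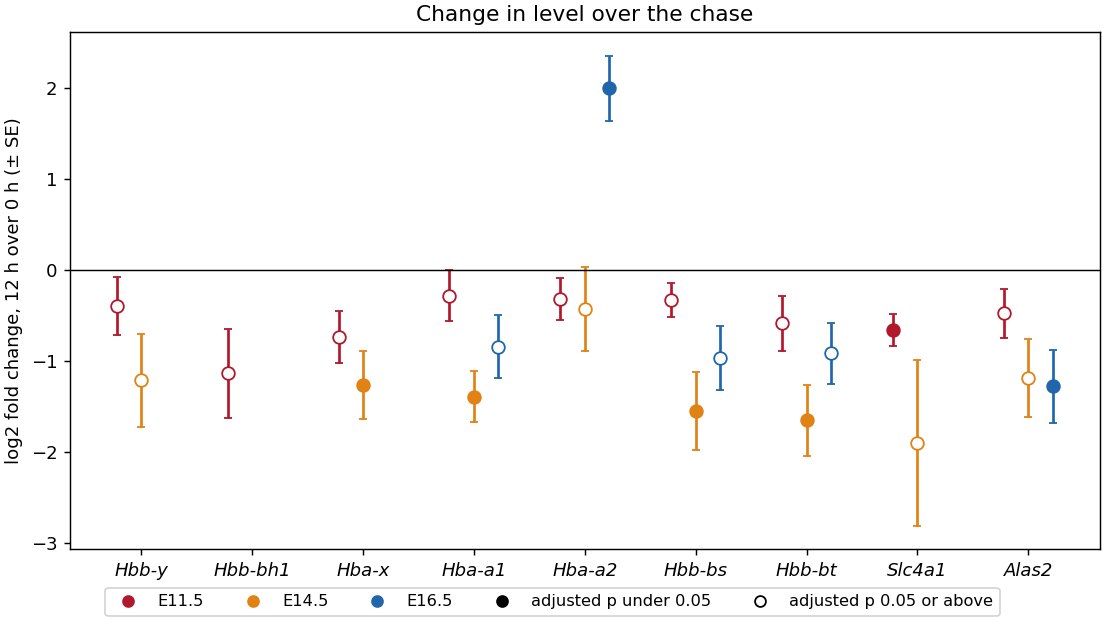
Change in level over the chase as log2 of 12 h over 0 h, with its standard error, for each erythroid transcript that passed the filter at a stage, coloured by stage. Filled points have an edgeR adjusted p under 0.05 without the pool as a block. All points but that of Hba-a2 at E16.5, at 2.00, lie below 0.

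Markers of other cells moved over the chase as well. At E11.5 the summed level of 7 megakaryocyte and platelet markers was 5.24 to 7.74 cpm at 0 h and 1.40 to 2.71 cpm at 12 h, with Pf4 and Ppbp at 0 reads at 0 h in all later libraries. That of 8 macrophage and microglia markers was 7.63 to 11.9 cpm at 0 h and 2.78 to 4.29 cpm at 12 h at E11.5, and 8.89 to 12.9 and 8.53 to 12.5 cpm at E14.5. Cortical markers summed to 5136 to 5407 cpm at 0 h and 6099 to 6273 cpm at 12 h at E16.5. Their part in the changes of the erythroid transcripts was not tested.

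The label itself was then compared between genes and over the chase, wherever more than 500 Ts were covered. At E11.5 most erythroid transcripts had a lower conversion rate than the library at 0 h, and most of their rates changed little by 12 h. A rate is a fraction of covered Ts, so it does not give the amount of labelled RNA, and the rate without label is unknown here. Less or more label below stands for a lower or higher rate. Hbb-bs read C at 0.314, 0.377 and 0.195% of covered Ts at 0 h, which was 28.9, 37.4 and 13.5% of the rate of the library. Only 0.0794 to 0.495% of the genes with more than 500 covered Ts had a lower rate in the same library. Hba-x stood at 0.442, 0.553 and 0.349%, Hba-a1 at 0.559, 0.651 and 0.440% and Alas2 at 0.595, 0.588 and 0.394%. All 3 lay below the library in each pool.

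Hbb-bh1 was nearer to the library, at 0.971, 0.921 and 0.693%, and Slc4a1 lay around it, at 1.10, 1.40 and 0.910% (101, 139 and 63.2% of the rate of the library). Hba-a2 lay above it in each pool, at 1.94, 2.14 and 1.88%, although its exons are largely those of Hba-a1. Against the library, the log2 differences ran from -2.03 ± 0.50 for Hbb-bs to 0.77 ± 0.16 for Hba-a2 (SE, n = 3). In limma with a mean-variance trend 0 of 9 passed an adjusted p under 0.05, as did 0.00% of all 13185 genes, although 2729 genes had an unadjusted p under 0.05. Of the 9 erythroid transcripts, 6 had one, 5 of them with less label (Hbb-bs, Hba-x, Hba-a1, Hbb-y and Alas2) and Hba-a2 with more.

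At the later stages most adult globin rates lay far below that of the library, with Hbb-bt in pool B of E14.5 as an exception. At E14.5, Hbb-bs read C at 0.102, 0.0622 and 0.136% and Hba-a1 at 0.111, 0.121 and 0.154% of covered Ts at 0 h. Hbb-bt stood at 0.156, 1.46 and 0.0863%, and its rate in pool B was 124% of that of the library. At E16.5, Hbb-bs read C at 0.0617, 0.0720 and 0.0639% (on 21060, 45822 and 73546 covered Ts), which was 3.43, 3.78 and 3.39% of the rate of the library. Hba-a1 stood at 0.140, 0.145 and 0.0686%, and Hbb-bt at 0.171, 0.227 and 0.132%. In each of the 3 libraries of E16.5, fewer than 0.1% of genes lay below any of these 3 globins. Adult globins pooled read C at 0.1004, 0.109 and 0.0703% at E16.5, against 0.550, 0.635 and 0.489% at E11.5. Alas2 at E16.5 had 0, 3 and 4 conversions on 604, 1319 and 1594 covered Ts.

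Of 6 erythroid transcripts tested at 0 h at E14.5, 0 passed, as did 0.00% of all genes, with 4001 genes at an unadjusted p under 0.05. At E16.5, 1 of 4 passed, against 13.8% of all genes. It was Hbb-bt, lower than the library by 3.35 ± 0.71 on the log2 scale (SE, limma adjusted p = 0.0441). Hbb-bs was lower by a larger amount, -4.79 ± 3.10 (SE, adjusted p = 0.303), with a standard error that the trend across genes sets at such low rates. Without the trend, a setting added after the data had been seen, Hbb-bs differed by -4.79 ± 0.05 (SE, adjusted p = 0.00262) and 4 of 4 passed at E16.5, against 13.9% of all genes. In that setting 4 of 6 passed at E14.5 (Hba-x, Hba-a1, Hba-a2 and Hbb-bs), against 0.505%, and 0 of 9 at E11.5, against 0.129%.

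Over the chase, the summed rate of the libraries fell to 20.0 to 26.0% of that at 0 h at E11.5, to 21.8 to 25.4% at E14.5 and to 13.2 to 13.4% at E16.5. The rate of Hba-a1 at E11.5 was 0.559, 0.651 and 0.440% at 0 h and 0.572, 0.643 and 0.469% at 12 h. Adult globins pooled thus lay below the library at 0 h and above it at 12 h, with 0.553, 0.625 and 0.520% at 12 h against 0.262, 0.263 and 0.288%. Rates at 12 h relative to 0 h averaged 92.9% ± 13.6 for Hbb-bh1, 101% ± 9.57 for Hba-x, 103% ± 3.85 for Hba-a1, 113% ± 23.5 for Hbb-bs and 90.8% ± 14.9 for Alas2 (SD, n = 3 each).

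Slc4a1 was the exception. It read C at 1.10, 1.40 and 0.910% of covered Ts at 0 h, at 0.841, 1.10 and 0.668% at 4 h and at 0.457, 0.535 and 0.386% at 12 h, when 40.8% ± 2.26 of its rate at 0 h was left (SD, n = 3). Its rate fell by 1.29 ± 0.24 on the log2 scale (SE, limma adjusted p = 0.000105). It was the 1 of 9 erythroid transcripts at E11.5 whose loss passed, against 98.8% of 12668 genes, and the median log2 change was 0.01 over the 9 and -2.29 over all genes. At E14.5 0 of 4 passed, against 98.2% of all genes, and at E16.5 0 of 3, against 99.2%. The rates of these 3 at 0 h at E16.5 were 0.0617 to 0.227%, and the libraries had 0.240 to 0.252% at 12 h. At E14.5 all 4 also began below the libraries of 12 h in pools A and C, as did Hba-a1 and Hbb-bs in pool B. A loss could hardly show from such rates, so counts at the later stages cannot tell whether label was kept. An unadjusted p under 0.05 gave the same 1, 0 and 0 of the erythroid transcripts. The mean log2 rate at 12 h was not below that at 0 h for 11 of 12668 genes at E11.5, 21 of 12592 at E14.5 and 9 of 12734 at E16.5. Erythroid transcripts were 5, 4 and 2 of these.

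Among the filters of the study on half-lives, which ask for an exponential fit below 24 h with an R2 above 0.6 in all 3 replicates, Slc4a1 at E11.5 was the only erythroid transcript to pass at any stage. Its half-life was 9.10, 8.496 and 10.2 h, or 9.27 ± 0.874 h (SD, n = 3). The median over 10858 transcripts was 4.43 h, and 96.5% of them had a shorter mean half-life than Slc4a1. These 10858 were the genes, out of 53491, that passed the same filters at E11.5. The filters also ask for more than 500 covered Ts in every library, which 9 of 9 transcripts had at E11.5. At E14.5 only 4 had this and at E16.5 only 3, so the others could not pass there.

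At the later stages a few rates stood higher at 12 h. Hba-a1 at E14.5 went from 0.111, 0.121 and 0.154% to 0.296, 0.252 and 0.199%, on 7, 11 and 21 conversions at 12 h. Hbb-bs at E16.5 went from 0.0617, 0.0720 and 0.0639% to 0.107, 0.147 and 0.164%. Both were higher in 3 of 3 pools but did not pass in limma with the trend (0.98 ± 0.91, adjusted p = 0.302, and 1.06 ± 2.28, adjusted p = 0.650). Without the trend both passed (adjusted p = 0.00898 and 0.00011), and with larger pseudocounts, 5 converted and 10 covered Ts in place of 0.5 and 1, they passed as well.

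**Figure D4:**
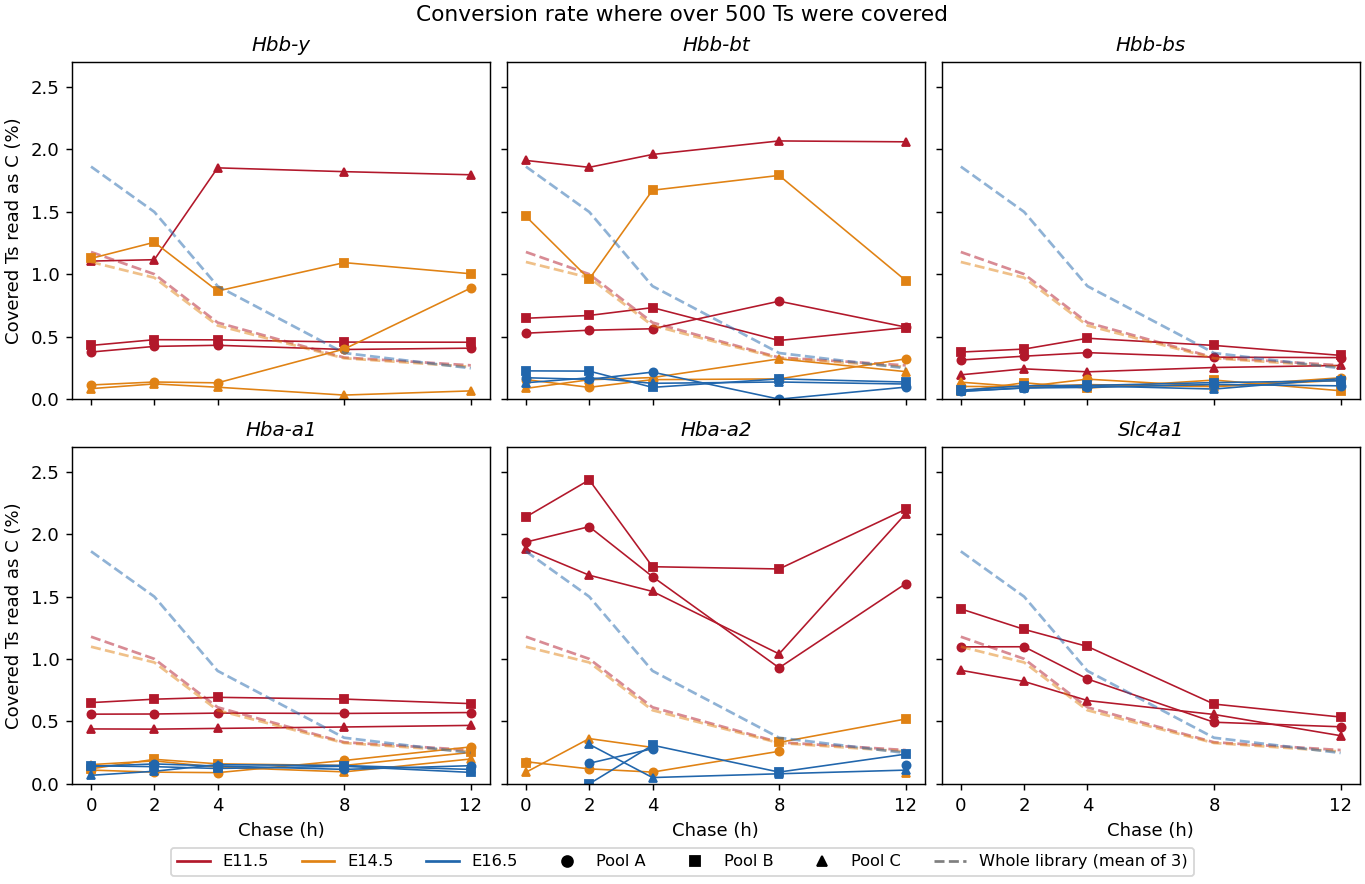
Conversion rate (% of covered Ts read as C) of 6 erythroid transcripts against chase time in hours, with 1 line for each pool, drawn where more than 500 Ts were covered, and the mean rate of 3 whole libraries as dashed lines. The libraries fall at each stage, Slc4a1 falls at E11.5, and the globin lines stay level or scatter, with pool C of E11.5 and pool B of E14.5 apart from the other pools for Hbb-y and Hbb-bt.

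Single pools stood apart in the rates of 2 beta-like genes. In pool C of E11.5, Hbb-y read C at 1.11 and 1.12% of covered Ts at 0 and 2 h and at 1.85, 1.82 and 1.80% at 4, 8 and 12 h, against 0.377 to 0.476% in pools A and B at any time. Hbb-bt stood at 1.86 to 2.07% in the same pool, against 0.470 to 0.785% in the others. In pool B of E14.5 Hbb-y stood at 0.866 to 1.26% and Hbb-bt at 0.9504 to 1.79%, while pool C stayed between 0.0327 and 0.122% for Hbb-y and between 0.0863 and 0.323% for Hbb-bt. Pool A of E14.5 held 0.114 to 0.401% up to 8 h for Hbb-y and 0.890% at 12 h, on 8 conversions among 899 Ts (95% Wilson interval 0.452 to 1.75%). Hbb-bs, Hba-x and Hba-a1 in pool C of E11.5 were instead the lowest of the 3 pools at 0 h. The cause of these offsets was not tested, and n = 3 comparisons of Hbb-y and Hbb-bt at E11.5 and E14.5 rest on 1 pool of a different rate.

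Other genes listed for roles in red cells, called other erythroid genes here, gave a wider view of the stages. Of 56 listed, 55 were in the tables and 34 were tested at 0 h. Between E11.5 and E14.5, 10 of 34 fell by an edgeR adjusted p under 0.05 and a log2 change beyond 1, against 8.00% of all 18408 genes, 3 rose, against 8.14%, and 21 did not pass. The median log2 change was -0.47, beside -0.01 for all genes. Between E14.5 and E16.5, 1 fell, against 5.92%, and 4 rose, against 7.19%. These lists were chosen with results of these data known and overlap in kind with the 9 transcripts, so the counts are a description.

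By role, Hbq1b, a minor alpha-like (theta) globin, stood at 0.587, 1.01 and 0.923 cpm at E11.5 and at 0.106, 0.0330 and 0.0268 cpm at E14.5, and fell by 3.76 ± 0.59 on the log2 scale (SE, adjusted p = 0.000161). Hbb-bh0, an embryonic-type beta-like gene that was not tested, stood at 2.35, 2.40 and 7.54 cpm at E11.5 and had at most 1 read in any later library at 0 h. Of the erythroid transcription factors tested, 2 of 4 fell. Tal1 went from 2.46, 2.98 and 4.11 cpm to 0.0849, 0.198 and 0.0805 cpm (log2 change -5.11 ± 0.43, adjusted p = 6.4e-07), and Zfpm1, the cofactor FOG1 of GATA proteins, changed by -1.47 ± 0.16 (adjusted p = 5.6e-06). Both rose again to E16.5, by 1.22 ± 0.38 (adjusted p = 0.0186) and 1.03 ± 0.15 (adjusted p = 0.000117). For Tal1 this rests on few reads, at most 6 in a library of E14.5 and 11 in one of E16.5. Its levels at E16.5, 0.114, 0.190 and 0.294 cpm, overlapped those at E14.5. Lmo2 rose to E14.5 by 1.94 ± 0.23, and Myb, at -1.00 ± 0.14, did not pass the fold limit.

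Of 9 genes of the red cell membrane and its skeleton, 2 fell to E14.5, the water channel Aqp1 (-2.66 ± 0.76, adjusted p = 0.0112) and the tropomodulin Tmod1, and 2 rose, Ank1 and Dmtn. The 2 most abundant of this list differed by -0.01 ± 0.07 (Epb41, which encodes protein 4.1) and 0.73 ± 0.08 (Add2, beta-adducin) and did not pass the fold limit. Of 7 genes of iron and heme transport, 1 fell, the ferrireductase gene Steap3 (-1.70 ± 0.22, adjusted p = 3.0e-05), while the transferrin receptor gene Tfrc, at 251, 224 and 230 cpm at E11.5 and 191, 189 and 213 cpm at E14.5, differed by -0.21 ± 0.07. Of 8 further heme synthesis genes, 0 passed at either step. Alad stood at 59.6, 63.9 and 53.5 cpm at E11.5 and differed by -0.43 ± 0.10, where Alas2 differed by -4.72. Of 5 other red cell enzymes and regulators tested, 4 fell, led by the biliverdin reductase gene Blvrb (-2.28 ± 0.23, adjusted p = 3.5e-06), with Car2, a carbonic anhydrase gene, at -1.57 ± 0.10 and again at -1.05 ± 0.10 to E16.5. Prdx2 stood at 493, 522 and 510 cpm at E11.5 and differed by 0.11 ± 0.06 (adjusted p = 0.164).

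The 21 listed genes that were not tested had too few covered Ts in some library, and 17 of them had every E11.5 library at 0 h above all 6 later libraries. Over all 55 this held for 36, against 16.46% of 30767 genes with a read at 0 h, and the filter kept genes of this kind out of the tests. Of the marker lists of other cells, most stood higher at E11.5, while the summed level of macrophage and microglia markers was 7.63 to 11.9 cpm at E11.5 and 8.89 to 12.9 cpm at E14.5, with 0 of 8 lower and 1 higher. Meningeal fibroblast markers summed to 437 to 667 cpm at E11.5 and 14.1 to 15.3 cpm at E14.5, megakaryocyte markers to 5.24 to 7.74 and 0.637 to 1.29 cpm, mural markers to 56.6 to 77.6 and 11.0 to 12.7 cpm, and endothelial markers to 4.88 to 6.38 and 1.19 to 3.56 cpm. Cortical markers summed to 3504 to 3737 cpm at E11.5 and 4335 to 4635 cpm at E14.5. Their part in the stage differences was not tested, and the share of blood left in the dissected tissue was not measured.

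The profiles most like the mean profile of the 9 transcripts over all 45 libraries, among 18096 genes outside them, included those of Ctse (Pearson r = 0.974), Cbln4 (0.973), Kel (0.966), Epb42 (0.965), Lrrc15 (0.965), Grap2 (0.964), Six2 (0.962), Trim10 (0.961) and Foxd1 (0.961). Kel and Epb42 encode red cell membrane proteins, whereas Six2 and Foxd1 encode transcription factors known from mesenchyme. Within the 9, Hbb-y and Hba-x (r = 0.990) and Hba-a1 and Alas2 (r = 0.989) ran closest together, and Hbb-y and Hbb-bs least (r = 0.397). These coefficients describe libraries that share pools and stages and have no p.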

How the data were processed

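The authors aligned reads with SlamDunk to mm10 and summed exons per GENCODE gene. The authors deposited counts of covered Ts, where each read adds 1 count for every T of the gene that it spans. Expression was deposited by the authors as CPM, and 100% of its values were whole multiples of 1 read within 0.01 reads, so reads were recovered. Rates were deposited as the fraction of covered Ts that read C, and are given here as percentages. Deposited half-lives were not used, and half-lives were refitted. How reads that align to more than 1 place were assigned is not given in the sources used here.

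Members and lists were chosen with earlier results of these data known. Genes named outside the 9 were the 2 most abundant at E11.5 in each list, the called gene of largest change in each list and the 10 most similar profiles, of which some are not reported here; Lmo2, Tmod1, Ank1, Dmtn, Gata1, Klf1, Pf4 and Ppbp were added after their values were seen. Gene names and exon lengths came from GENCODE M21 (96.6% of identifiers matched), which is not the release of the authors.

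Levels were tested on covered-T counts with edgeR 4.0.16 (TMM, quasi-likelihood, more than 10 covered Ts in all libraries fitted). Stage fits used 9 libraries at 0 h, and chase fits 15 libraries of a stage. Rates were tested with limma 3.58.1 on log2((converted Ts + 0.5)/(covered Ts + 1)) with a mean-variance trend, where covered Ts exceeded 500. Calls used a Benjamini-Hochberg adjusted p under 0.05. Shares were compared by exact permutation. Scripts were tested on simulated data. Pools pair libraries within a stage by protocol, and deviations of the same pool correlated with a median r of 0.324, 0.350 and 0.411 for the 3 stages in order of age (lowest 0.0805, 0.160 and 0.264 over 30 pairs each). Alternatives were the pool as a block, DESeq2 1.42.0, recovered reads, other filters, pseudocounts and references, and leaving out each pool. R 4.3.3 and Python 3.11.15 were used.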

Additional observations from a re-analysis of the deposited data

Results flagged for a closer look

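Hba-a2 stood out because its change over the chase differed between stages. The log2 change from 0 h to 12 h was larger at E16.5 than at E11.5 by 2.26 ± 0.45 (SE, edgeR adjusted p = 0.00138, in a fit of 30 libraries added after the data had been seen). Hba-a2 was higher at 12 h in 3 of 3 pools at E16.5 and lower in 3 of 3 pools at E11.5. At 8 h, however, it was higher than at 0 h at E11.5 too, at 169, 167 and 328% in pools A, B and C. The difference between E16.5 and E14.5 was 2.41 ± 0.63 (SE, adjusted p = 0.0607). Reads of Hba-a2 and Hba-a1 share most of their exon sequence, and the part of read assignment in this difference was not tested.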

How the results depend on the processing

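Pools pair the libraries of a stage, and with the pool as a replicate block 7 transcripts fell over the chase at E11.5 (1 without it), 6 at E14.5 (4) and 4 at E16.5 (1), while genes called at E14.5 numbered 2383 lower and 2583 higher (1331 and 1371). The block changed no call of the label tests. With a log2 change beyond 1, 0 of the 9 fell at E11.5, and genes called lower and higher over the chase numbered 457 and 254 at E11.5, 285 and 124 at E14.5 and 410 and 135 at E16.5. Without the filter on low counts 3 fell at E11.5 and 4 at E16.5. The shares of all genes that fell without the filter are not given here. With it they were 9.83% and 12.0% of a different set of genes, so the counts have no like background. Without the filter, other erythroid genes numbered 27 lower at E14.5, then 3 lower and 7 higher at E16.5, again with no share of all genes given. On recovered reads, genes lower at E14.5 against E11.5 numbered 964, and other erythroid genes 6 lower, then 0 lower at E16.5. With more than 2000 covered Ts, 340 genes held less label than the library at 0 h at E14.5. At E16.5, 3 of 3 transcripts did. The shares of all genes in that setting are not given here, so the 3 of 3 has no like background. With the lower limit used above, 1 of 4 transcripts passed at E16.5, against 13.8% of a different set of genes. Without the trend, 17 genes held less label at E11.5 and 69 at E14.5, with 4 transcripts each at E14.5 and E16.5. The shares of all genes without the trend were 0.505% at E14.5 and 13.9% at E16.5.

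Leaving out 1 pool gave 0 to 1 (E11.5), 0 to 6 (E14.5) and 0 to 4 (E16.5) transcripts that fell over the chase, and 575 to 1734, 396 to 887 and 1244 to 1351 genes that fell and 877 to 2231, 355 to 861 and 1368 to 1565 that rose. At 0 h against the library it gave 0 transcripts and 0 genes at E16.5. Other erythroid genes numbered 9 to 11 lower at E14.5, and 0 to 1 lower and 3 to 6 higher at E16.5. The embryonic share differed over the chase by -1.41 to -1.13 points at E11.5, -0.249 to 4.497 at E14.5 (-0.0249 without pool B) and -0.103 to 0.0572 at E16.5.

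Among single transcripts, reversed signs concerned label differences that had not passed. Over the chase at E11.5, leaving out 1 pool gave -0.0474 to 0.0875 for Hba-x (-0.0078 without another pool), -0.12 to 0.12 for Hba-a2, -0.0105 to 0.28 for Hbb-bs and -0.0354 to 0.12 for Hbb-bt (-0.0236 without another pool). Likewise Hbb-y at E14.5 gave -0.22 to 1.43, Hba-a1 at E16.5 -0.27 to 0.43, and Slc4a1 at 0 h at E11.5 -0.32 to 0.25. With larger pseudocounts Hbb-bt at E16.5 gave 0.35. The cause was not tested. Of 154 tests of single transcripts over the chase under other settings, 118 kept direction and call, 25 gained and 11 lost the call. Depth limits Hbb-y, Hbb-bh1, Hba-x and Slc4a1 at E16.5, which had 0 to 16 reads at 0 h.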
